A study of Mus musculus with 3 samples.

Results

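Transcripts of 10 plasma membrane amino acid transporter genes were measured in mouse regulatory T (Treg) cells, the CD4 lineage marked by Foxp3 that keeps other immune cells in check. The genes were Slc7a5, Slc3a2, Slc1a5, Slc7a1, Slc7a6, Slc7a11, Slc38a1, Slc38a2, Slc1a4 and Slc6a6. They were taken by name from a list of carriers, by a rule with no threshold on measured values but drawn up with earlier results of these data known, and all 10 were found by Ensembl identifier among the 50600 genes of the deposited tables. The data were 3 RNA sequencing libraries of C57BL/6NJ primary Treg cells, numbered biological replicates 2, 3 and 4, which form a single group. Per the file headers the cells had been activated for 16 hours, and by the name of the linked protocol they came from a differentiation procedure for CD4 T cells. The labels give 1 donor identifier for the 3 libraries, record no sex and list the age as unknown. They do not say whether separate animals were used, so each SD (n = 3) describes how far these libraries differ, for which technical and biological shares cannot be told apart. No resting cells and no other T cell type were analysed here, so levels could be compared between genes and between libraries, not between conditions.

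Amino acid carriers of the plasma membrane set how fast a lymphocyte can take up the building blocks for protein, nucleotides and glutathione, and T cells are known to depend on several of them once activated. Some carriers work alone. Others are pairs, in which a glycoprotein heavy chain, Slc3a2 (CD98), is joined by a disulfide bond to a light chain of the SLC7 family that moves the amino acids; many are exchangers, which let 1 amino acid in as another leaves.

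Depth was 41222058, 47665060 and 99097524 assigned fragments in replicates 2, 3 and 4. The cells carried the markers of their label: 5 of 5 Treg markers and 5 of 5 T cell markers reached 10 TPM in every library, with Foxp3 at 80.9 ± 3.97 TPM and Cd4 at 591 ± 17.9 TPM. TPM is the fragment count divided by exon length and scaled so that every library has the same total. Of 24 markers of other cell types, 19 stayed below 1 TPM in every library and 9 had no fragment, among them the myeloid genes Lyz2, S100a8 and S100a9. Summed CD8 T cell markers were 28.6, 29.0 and 24.4 TPM. Cd8b1 made up nearly all of the CD8 sum, at 28.2, 28.6 and 23.9 TPM, while Cd8a was at 0.338, 0.403 and 0.508 TPM and Gzmk had no fragment. The libraries stood apart in sex-linked transcripts. Xist, the RNA of the inactive X chromosome, was at 126, 0.331 and 36.1 TPM, and the Y-linked Ddx3y had 8, 2932 and 4314 fragments in replicates 2, 3 and 4. Replicate 2 therefore held Xist with almost no Ddx3y, replicate 3 the reverse, and replicate 4 both, so the libraries did not all hold cells of 1 and the same animal. Whether this had a part in the transporter values was not tested.

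Of the 10 transporters, 9 were well expressed and 1, Slc7a11, was close to the detection limit. The 9 passed 1 TPM in every library, a level reached by 45.6% of 21764 protein-coding genes. The same 9 passed 10 TPM in every library (34.8% of protein-coding genes), and 8 passed 100 TPM (8.80%). The median transporter was at 164, 155 and 158 TPM in replicates 2, 3 and 4, against 0.348, 0.338 and 0.381 TPM for the median protein-coding gene. By mean TPM the order ran from Slc7a5 through Slc1a5, Slc3a2, Slc38a1, Slc38a2, Slc7a6, Slc6a6, Slc7a1 and Slc1a4 down to Slc7a11, as the plot of TPM in each library shows.

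**Figure D1:**
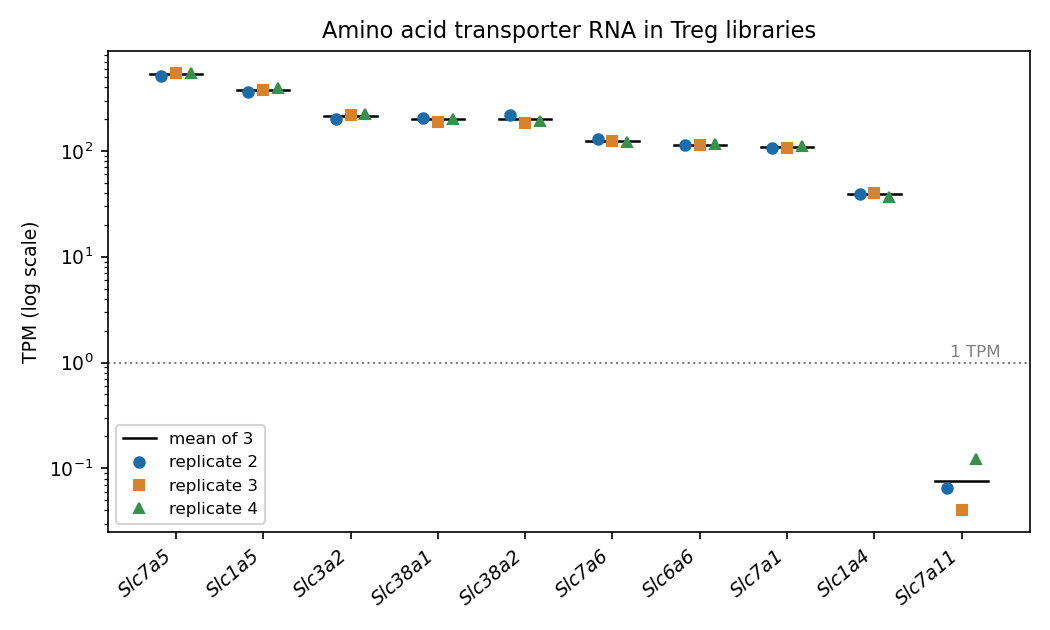
TPM (log axis) of the 10 amino acid transporters in Treg replicates 2, 3 and 4, with 1 symbol per library, ordered by mean (black bars); the dotted line is 1 TPM. For 9 genes the 3 symbols nearly coincide between 36.9 and 551 TPM, whereas Slc7a11 lies at 0.0401 to 0.123 TPM with symbols spread apart.

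The heavy chain Slc3a2 (chromosome 19, 8706882 to 8723369, minus strand; mm10 here and for every gene position that follows) was at 199.7, 218 and 223 TPM. Replicate 2 was lowest, and the mean of 214 ± 12.5 TPM placed the gene at percentile 96.0 of protein-coding genes. Its light chain Slc7a5 (LAT1; chromosome 8, 121881150 to 121907694, minus strand) imports leucine and other large neutral amino acids. Slc7a5 was at 511, 551 and 541 TPM, with these exon lengths the highest of the 10 in every library, with a mean of 534 ± 20.4 TPM (percentile 98.8). Slc7a6 (y+LAT2; chromosome 8, 106168857 to 106198706, plus strand) exchanges arginine for neutral amino acids, and was at 128, 125 and 123 TPM (125 ± 2.85). The light chain transcript was thus in excess of its heavy chain for Slc7a5 and below it for Slc7a6, in 3 of 3 libraries each. Slc7a5 TPM was 2.56, 2.53 and 2.42 times that of Slc3a2, a difference of 1.32 ± 0.04 on the log2(TPM + 1) scale. Slc7a5 was 3.98, 4.40 and 4.40 times Slc7a6, a difference of 2.08 ± 0.08 on that scale.

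Slc7a11 (xCT; chromosome 3, 49892526 to 50443614, minus strand), the light chain that brings in cystine in exchange for glutamate, had 11, 8 and 50 fragments. That is 0.0647, 0.0401 and 0.123 TPM in replicates 2, 3 and 4, with exact Poisson 95% intervals of 0.0323 to 0.116, 0.0173 to 0.0790 and 0.0912 to 0.162 TPM that cover counting error only. Each library held more than the 3 fragments that a count of 0 would still allow, which were worth 0.0177, 0.0150 and 0.00737 TPM, so the transcript was detected at a very low level. Slc7a11 lay below Slc7a5 by 8.96 ± 0.08 and below Slc3a2 by 7.64 ± 0.08 on the log2(TPM + 1) scale, which understates the gap for so low a gene. Summed over the 6 light chain genes known to pair with Slc3a2, light chain TPM was 3.21, 3.11 and 2.98 times heavy chain TPM (3.10 ± 0.119). Of the remaining light chains, Slc7a7 (y+LAT1) was at 1.18 ± 0.289 TPM, Slc7a8 (LAT2) was at 0.246 ± 0.0493 TPM and Slc7a10 had no fragment in any library, so Slc7a5 and Slc7a6 made up nearly the whole sum.

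Sequences at the start of 3 of these genes are shown because they differ in a motif that bears on amino acid supply. The motif is TGATGNAA, the core of the C/EBP-ATF response element, which the stress factor Atf4 is known to bind with a C/EBP partner when amino acids are short. RefSeq windows from 250 bases before to 50 after a start site (assembly GRCm38.p6, the assembly of mm10) were read for Slc7a11, Slc1a4, Slc38a2, Slc3a2, Slc7a1 and Slc7a6. These 6 genes had 8 windows, with more than 1 each for Slc7a1 and Slc7a6. Searched on both strands, 3.97% of 32851 such windows hold the motif and 0.07% hold it 2 or more times. Slc7a11 holds it at 2 places, first base 66 bases before the start on the gene's strand and 47 bases before on the opposite strand. Slc1a4 holds it once, from 4 bases before the start, on the opposite strand. The windows of Slc38a2, Slc3a2, Slc7a1 and Slc7a6 do not hold these letters, which says nothing about Atf4 at sites elsewhere. The stretches below run from 200 bases before to 10 bases after the start, 5′ to 3′ on the minus strand, at chr3:50443604-50443813, chr11:20332704-20332913 and chr19:8713888-8714097 (mm10), with motif matches in capitals. The Slc3a2 start lies inside the gene as deposited.
Slc7a11: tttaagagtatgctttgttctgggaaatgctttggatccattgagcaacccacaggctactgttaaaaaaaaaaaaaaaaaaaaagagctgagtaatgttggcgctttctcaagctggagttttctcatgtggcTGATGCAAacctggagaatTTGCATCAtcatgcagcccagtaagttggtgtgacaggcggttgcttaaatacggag
Slc1a4: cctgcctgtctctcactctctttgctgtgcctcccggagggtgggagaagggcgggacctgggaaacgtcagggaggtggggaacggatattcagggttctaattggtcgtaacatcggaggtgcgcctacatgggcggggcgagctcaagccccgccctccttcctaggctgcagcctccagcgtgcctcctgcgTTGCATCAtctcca
Slc3a2: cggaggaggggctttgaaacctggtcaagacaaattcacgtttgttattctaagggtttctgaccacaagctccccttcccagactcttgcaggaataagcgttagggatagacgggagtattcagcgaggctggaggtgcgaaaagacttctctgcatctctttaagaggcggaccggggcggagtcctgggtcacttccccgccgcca
Of the 6 genes searched, Slc7a11 with 2 matches was lowest in TPM and Slc1a4 with 1 match was next. Slc3a2, Slc38a2, Slc7a1 and Slc7a6, with none, were above both. Slc7a5, Slc1a5, Slc38a1 and Slc6a6 were not searched. With so few genes this is a description only, and a link between motif and level was not tested. Atf4 transcript itself was abundant, at 703, 723 and 742 TPM. The core of the antioxidant response element, TGACNNNGC, which Nfe2l2 is known to bind, lies in 12.4% of all windows. Slc38a2 holds it, as does Slc7a1 in its window at chr5:148399855-148400154 but not in that at chr5:148392766-148393065. The windows of Slc7a6 overlap and hold the same site. The window of Slc7a11 does not hold it. The E-box CACGTG, which Myc can bind, lies in 7.15% of windows and in none of these transporters' windows. A letter match is a description of sequence; binding was not measured.

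Slc7a1 (CAT1; chromosome 5, 148327410 to 148399904, minus strand) carries arginine and lysine and needs no heavy chain. It was at 108, 107 and 112 TPM (109 ± 2.91). Replicate 4 was highest by a small margin. Slc7a1 was 0.838, 0.854 and 0.915 times Slc7a6, the paired carrier that also handles arginine, a difference of -0.20 ± 0.07 on the log2(TPM + 1) scale. That order depends on the length used. With the longest protein-coding transcript in place of merged exons, Slc7a1 was above Slc7a6 by 0.19 on the same scale, so the data do not rank these genes. Here and below, longest transcript lengths came from the GENCODE M21 annotation, whereas counts and merged exon lengths were of M13.

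Among carriers of glutamine and small neutral amino acids, Slc1a5 (ASCT2; chromosome 7, 16781340 to 16798274, plus strand), a sodium-dependent exchanger of glutamine, was highest. Slc1a5 was at 359.6, 378 and 392 TPM (376 ± 16.1), with replicate 2 lowest. Its paralog Slc1a4 (ASCT1; chromosome 11, 20302180 to 20332713, minus strand), which exchanges alanine, serine and cysteine, was at 39.4, 40.1 and 36.9 TPM (38.8 ± 1.70). Slc1a5 exceeded Slc1a4 by 9.12, 9.42 and 10.6 times in TPM, or 3.24 ± 0.11 on the log2(TPM + 1) scale. Against Slc7a5, Slc1a5 was lower by 0.50 ± 0.04 on that scale in 3 of 3 libraries. This order, too, depended on the length used. With longest transcript lengths Slc1a5 was at 409.7 ± 17.1 TPM and Slc7a5 at 406 ± 14.7 TPM, though Slc7a5 stayed above Slc1a5 in replicate 3. The data therefore do not rank these genes.

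Both system A carriers, which bring in glutamine and alanine with sodium, had nearly equal means when merged exon lengths were used. Slc38a1 (SNAT1; chromosome 15, 96571418 to 96642913, minus strand) was at 207, 188 and 202 TPM (199 ± 9.68). Slc38a2 (SNAT2; chromosome 15, 96687394 to 96699698, minus strand) was at 218.5, 185 and 194 TPM (199 ± 17.5). Both were highest in replicate 2 and lowest in replicate 3, and their ranges overlapped. Slc38a2 minus Slc38a1 was -0.0046 ± 0.07 on the log2(TPM + 1) scale, with Slc38a2 higher in replicate 2 and lower in the other 2 libraries (exact sign-flip permutation p = 1). The sign turned when replicate 3 (0.0079) or replicate 4 (0.023) was left out. With longest transcript lengths the means were 166 TPM for Slc38a1 and 142 TPM for Slc38a2, a difference of -0.22 ± 0.07 with Slc38a1 higher in 3 of 3 libraries, so the near equality rests on the length used. These genes are neighbours on chromosome 15 on the same strand. In the GENCODE M21 annotation they share no exonic base with each other or with another gene on their strand. The counts were made over M13, for which this was not checked.

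Slc6a6 (TauT; chromosome 6, 91684053 to 91759066, plus strand), the sodium- and chloride-dependent carrier of taurine, was at 113, 115 and 117 TPM. Its SD of 1.87 TPM around a mean of 115 TPM was the smallest relative spread of the 10 genes, a coefficient of variation of 1.62%. It lay below Slc7a6 by 0.13 ± 0.06 and above Slc7a1 by 0.07 ± 0.03 on the log2(TPM + 1) scale, in 3 of 3 libraries each. Both orders depend on the length used: with longest transcript lengths the means were 126 TPM for Slc7a1, 113 TPM for Slc6a6 and 110.3 TPM for Slc7a6, the reverse order, though Slc7a6 stayed above Slc6a6 in replicate 2.

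Of 7 pairs set by shared family or complex, 6 had the same sign in 3 of 3 libraries, and 7 did with longest transcript lengths. With merged exon lengths, each of the 6 had an exact two-sided sign-flip permutation p of 0.25, the smallest that 3 libraries allow (0.292 after Benjamini-Hochberg adjustment over the 7 pairs), so no pair could pass 0.05. The plot of pair differences shows how small the spread between libraries was beside most of the differences. In the order of mean TPM, the ranges over libraries overlapped for 2 of the 9 neighbouring pairs. These were Slc3a2 with Slc38a1, 0.10 ± 0.14 apart on the log2(TPM + 1) scale, and Slc38a1 with Slc38a2. The widest step was from Slc1a4 to Slc7a11, 5.21 ± 0.12.

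**Figure D2:**
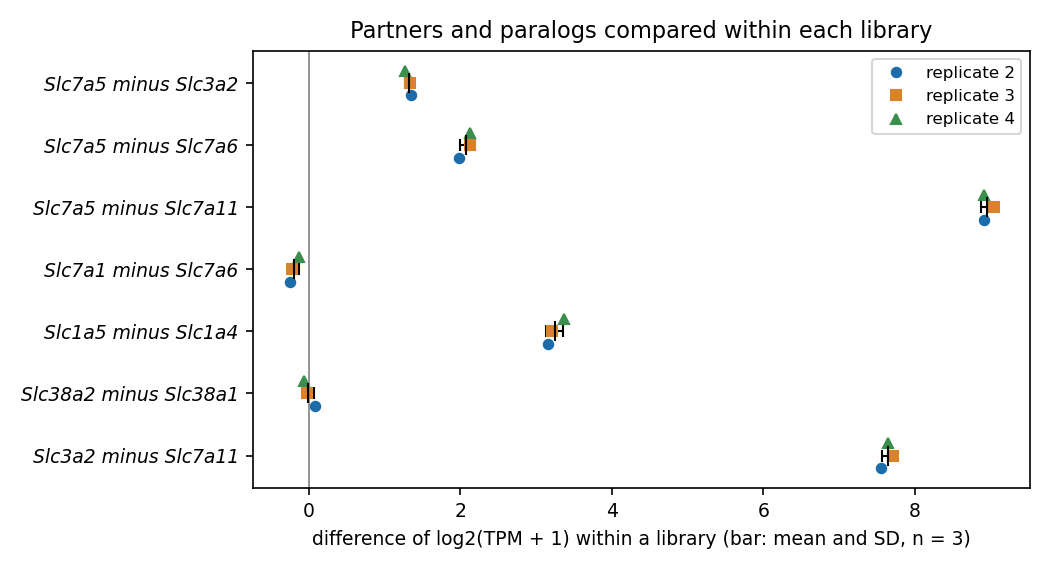
Differences of log2(TPM + 1) between the first and second gene of each of 7 pairs, with 1 symbol per library and a bar for the mean and SD over the 3 libraries. Slc38a2 minus Slc38a1 straddles 0, Slc7a1 minus Slc7a6 lies at -0.20, and Slc7a5 minus Slc7a11 lies at 8.96.

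Across the 48 plasma membrane carriers of amino acids that were listed, a few genes held nearly all of the transcript. The 10 transporters summed to 1885, 1907 and 1940.1 TPM, and 38 other carriers to 95.5, 91.8 and 96.4 TPM, so that the 10 held 95.2%, 95.4% and 95.3% of the TPM of the 48. Both lists were drawn up with earlier results of these data known, so this share depends in part on the choice of genes. Slc38a10, at 90.8 ± 7.62 TPM, was listed with carriers of internal membranes and is not among the 48. Of the 38, 6 passed 1 TPM in every library, 30 were under 1 TPM in all 3 and 21 had no fragment, as the plot by carrier family shows. A pair of the 38 passed 10 TPM. Slc16a10 (TAT1), which carries aromatic amino acids, was at 48.3, 43.2 and 43.5 TPM (45.0 ± 2.87). Slc43a2 (LAT4), a facilitated carrier of branched-chain amino acids, methionine and phenylalanine, was at 31.6, 34.5 and 37.6 TPM (34.6 ± 3.01). Both had means near that of Slc1a4.

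**Figure D3:**
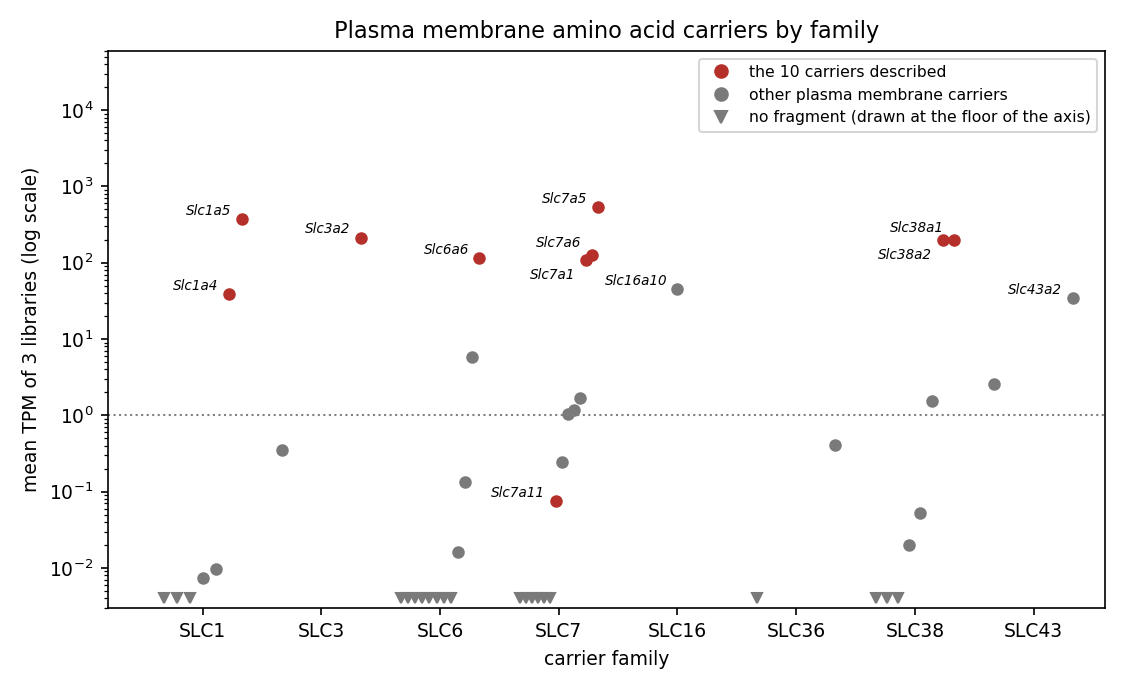
Mean TPM over 3 libraries (log axis) of 48 plasma membrane amino acid carriers, with 1 point per gene, grouped by family along the horizontal axis (placement within a family carries no meaning). Red points are the 10 transporters, grey points the other 38, and triangles at the floor are the 21 genes with no fragment; the dotted line is 1 TPM.

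Between libraries, 1 of the 10 transporters, Slc7a11, was called different, against 11.0% of 13688 genes tested. The call required an adjusted p under 0.05 in a chi-square test of equal rates (Benjamini-Hochberg over all genes tested) and a ratio of at least 2 between the highest and lowest library in CPM (counts scaled for library total only) adjusted with TMM factors. Slc7a11 was at 0.264, 0.169 and 0.507 CPM on that scale in replicates 2, 3 and 4. Replicate 4 was highest, with a ratio of 3.01 to replicate 3 (chi-square adjusted p = 0.00554). Genes this low were often called: 45.5% of 1970 tested genes with a mean under 1 TPM were. The call rests on replicates 3 and 4 together. Without replicate 3 the ratio was 1.91 and the adjusted p 0.0851, and without replicate 4 the 19 fragments left were too few for the test. In bulk RNA, fewer cells with a transcript and less transcript per cell cannot be told apart. Among the B cell markers, Igkc (2.31, 6.29 and 2.77 TPM) was highest in replicate 3, and Cd79a (1.01, 0.958 and 1.39 TPM) and Cd79b (0.916, 0.780 and 0.956 TPM) in replicate 4, as was Cd8a; their part in the Slc7a11 difference was not tested.

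The 9 other transporters moved little between libraries. Their ratios of highest to lowest library ran from 1.04 for Slc7a6 to 1.15 for Slc38a2, and the median over all 10 was 1.11. For comparison, the median ratio was 1.19 over all genes tested and 1.13 over genes with a mean of 10 TPM or more, of which 0.894% of 8169 were called. At these depths the chi-square test, which takes fragments as independent, passes very small differences: all 10 transporters had an adjusted p under 0.05, as did 70.5% of genes tested. For Slc7a5 the adjusted p was 9.67e-31 with a ratio of 1.11, and for Slc7a6 it was 0.00895 with a ratio of 1.04. These values compare libraries, not conditions.

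The direction of the small shifts was not shared by all 10. Deviations from the gene's own mean, in log2 CPM scaled with TMM factors, were -0.12, 0.05 and 0.06 for Slc3a2 in replicates 2, 3 and 4. They were -0.08, 0.07 and 0.01 for Slc7a5, and -0.09, 0.03 and 0.05 for Slc1a5. Slc38a2 went the other way in every library, at 0.12, -0.08 and -0.04, and Slc38a1, at 0.04, -0.05 and 0.02, did so in replicates 2 and 3. Replicate 2 was thus low for the leucine pair and Slc1a5 and high for both system A carriers. Counted over the 10, the highest value was in replicate 2 for 2 genes, in replicate 3 for 4 and in replicate 4 for 4, against 34.6%, 33.4% and 32.0% of genes tested. The lowest value was in replicate 2 for 5 genes, in replicate 3 for 3 and in replicate 4 for 2, against 39.3%, 34.2% and 26.6%. Replicate 2 was also the shallowest library and the one with almost no Ddx3y, and the part of either in these shifts was not tested.

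**Figure D4:**
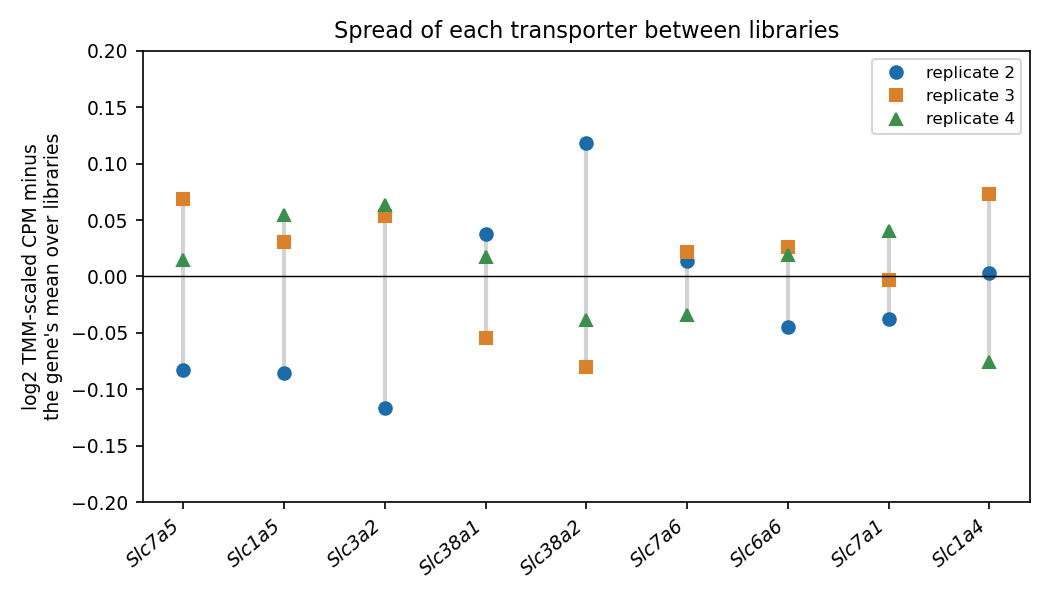
Deviation of 9 transporters in each library from the gene's mean over the 3 libraries, in log2 CPM scaled with TMM factors. Symbols are libraries and grey lines join each gene's lowest and highest; all points lie between -0.12 and 0.12. Slc7a11, from -0.75 in replicate 3 to 0.84 in replicate 4, is not drawn.

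Genes that surround the transporters were taken as 7 further lists. Sensing and transcription factors of amino acid supply reached 1 TPM in every library for 17 of 17 genes. The highest were Myc, a growth regulator, at 825 ± 16.4 TPM and Atf4 at 723 ± 19.3 TPM; the lowest were Castor2, a relative of the arginine sensor Castor1, at 4.75 ± 0.218 TPM and Bach1, a repressor of antioxidant genes, at 5.79 ± 0.594 TPM. None of the 17 was called different between libraries, where 0.894% of genes with a mean of 10 TPM or more and 11.0% of all genes tested were. Of 11 carriers of lysosomes and other internal membranes, 10 reached 1 TPM in every library. Slc38a10 was highest at 90.8 ± 7.62 TPM, followed by Mfsd12, which lets cysteine into lysosomes, at 28.6 ± 2.52 TPM. Slc15a3, a peptide and histidine carrier, was low at 2.15 ± 0.361 TPM, and Slc7a14 had no fragment. Of 7 ubiquitin ligases and heavy chain partners, 6 reached 1 TPM. Bsg, a chaperone of membrane carriers that associates with CD98, was at 527 ± 21.3 TPM and Cd44 at 107 ± 10.2 TPM. The ligase March8 was at 1.91 ± 0.239 TPM and March1 had no fragment.

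Enzymes that use the imported amino acids were mostly expressed. For glutamine and glutamate, 9 of 9 genes reached 1 TPM, led by the transaminase Got1 at 228 ± 10.1 TPM and glutamate dehydrogenase, Glud1, at 193 ± 13.8 TPM. The lowest there were Gpt2, an alanine transaminase, at 4.70 ± 0.617 TPM and the glutaminase Gls2 at 9.09 ± 0.842 TPM. For leucine and the other branched-chain amino acids, 7 of 7 passed 10 TPM, from Bckdhb at 20.9 ± 1.17 TPM and Ivd at 25.1 ± 0.769 TPM to the transaminase Bcat1 at 117 ± 1.62 TPM and Dld at 120.0 ± 8.31 TPM. Arginine genes were divided. Odc1, the first enzyme of polyamine synthesis, was at 953 ± 40.2 TPM and Ass1, which serves arginine synthesis, at 166 ± 6.32 TPM, whereas Nos2 was at 0.0543 ± 0.0352 TPM and Arg1 had no fragment.

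Beside the low Slc7a11, genes of cysteine, glutathione and taurine were partly expressed: 8 of 12 passed 1 TPM in all 3 libraries, and 2 were under it in all 3. Txnrd1, a thioredoxin reductase, was at 169 ± 2.62 TPM, and Gpx4, which reduces lipid peroxides with glutathione, was at 116 ± 5.38 TPM. Ggt1, which splits glutathione outside the cell, had 17, 16 and 15 fragments, or 0.408, 0.327 and 0.150 TPM, and was called different between libraries (ratio 2.68, chi-square adjusted p = 0.0165). Ggt1 was lowest in replicate 4, where Slc7a11 was highest. Over the 8 lists, which include the 38 other plasma membrane carriers, 67 of 108 genes passed 1 TPM throughout, beside 45.6% of all protein-coding genes, and 3 of 76 tested were called, beside 11.0% of all genes tested. The other called genes were also low. Slc3a1, the heavy chain of the kidney cystine carrier, had 5, 25 and 9 fragments, and the amino acid carrier Slc36a3 had 13, 4 and 45. Slc3a1 was highest in replicate 3, and Slc36a3 had its highest and lowest values in the same libraries as Slc7a11. With 3 libraries and so few fragments, neither this match nor the opposite order of Ggt1 shows a link to Slc7a11.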

How the data were processed

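RNA of 3 Treg libraries was measured. The assay label names total RNA and the linked library protocol, by its name, polyadenylated RNA. Raw fragment counts were deposited by gene, beside merged exon lengths and coordinates. Per the file headers, these counts came from featureCounts 1.4.6-p4 on paired, reverse-stranded alignments (strand option 2) over GENCODE mouse M13; per the labels the build is mm10. Alignment files in the headers are named for STAR. Its version and the read trimming: not given in the sources used here. By the program's defaults, fragments aligned to several places or overlapping several genes are left out.

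TPM was computed here from the deposited counts and exon length. Symbols came from GENCODE M21 by unversioned identifier (50376 of 50600 matched, 224 did not). Genes with a summed count of 30 or more (13688) entered the chi-square test (2 degrees of freedom) on library sizes scaled by TMM (edgeR 4.0.16, R 4.3.3). A quasi-likelihood test was not run because it needs a second group. Pairs were compared as log2(TPM + 1) with an exact sign-flip test. Tested on simulated data over 13688 genes, the library comparison called 93 of 100 genes changed 2.5-fold, 96 of 100 changed 4-fold and 3 of 13488 unchanged genes. The simulated counts held Poisson noise only, which the test itself assumes. They had no further spread between libraries, so they do not give the rate of false calls in the real data. Alternatives were other scalings (DESeq2 1.42.0 size factors, library totals), other lengths, other thresholds and leaving out each library. Longest transcript lengths were taken from M21, so that alternative changed the annotation as well as the length rule. For Slc38a2 the longest transcript, 4660 bases, exceeded the merged exon length of 4626 bases. Each library was counted as its own sample. Pairwise chi-square statistics averaged 17.2 to 26.6 per gene, above sampling noise. That shows the libraries differ by more than counting error, not that they come from independent animals. The protocol names no molecular identifiers, so intervals and floors reflect counting error alone.

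The 10 transporters and the lists were chosen with earlier results of these data known. All 10 were named, and from each other list the 2 highest and 2 lowest by mean TPM (ties at no fragment only counted in the list of 38), any plasma membrane carrier at 10 TPM or more and any gene called. Slc7a7, Slc7a8 and Slc7a10 were named besides as partners of Slc3a2. 1 gene of the cysteine list that the rule names is not reported here. A planned comparison of protein sequences was not run. RefSeq promoter windows of Slc7a5, Slc1a5, Slc38a1 and Slc6a6 were not used here. Other steps ran in Python 3.11.15 with scipy 1.17.1, pandas 2.3.3, matplotlib 3.10.9 and numpy 2.4.6.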

Additional observations from a re-analysis of the deposited data

How the results depend on the processing

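No paired analysis was possible because the 3 libraries form 1 group. Counting only protein-coding genes outside the mitochondrial genome moved the median transporter level from 159 to 169 TPM, by construction of the total. Lengths of the longest protein-coding transcript, an alternative chosen after seeing the data, moved it to 134 TPM. They also moved the ratio of light chain to heavy chain TPM from 3.10 to 2.68 and the share held by the 10 transporters from 95.3% to 94.6%. Slc7a1 minus Slc7a6, on the log2 scale, changed from -0.20 to 0.19 with those lengths and to 1.13 with CPM, which is not divided by length. Slc38a2 minus Slc38a1 was 0.0079 without replicate 3 and 0.023 without replicate 4, and ran from -0.045 to 0.023 over the left-out libraries; it was -0.22 with the longest transcript lengths and -0.86 with CPM, with Slc38a1 higher in 3 of 3 libraries in both. The count of pairs with 1 sign in every library was then 7, as it was without replicate 2, and 4 when only pairs with both genes at 1 TPM or more were kept, which leaves out those with Slc7a11. The number of transporters called between libraries ran from 0 to 1 over the left-out libraries: Slc7a11 kept its call without replicate 2 and lost it without replicate 3 or 4. Its adjusted p was 0.00554 to 0.00756 with all 3 libraries under the other scalings and filters. Of the alternative values of the main results, 43 stayed within the spread or the same call and 6 did not. For the levels of single genes and the single pair differences, 101 stayed, 16 moved and 4 changed sign. Longest transcript lengths moved the levels of 8 of the 10 transporters. Depth limits the value of Slc7a11, with 8 to 50 fragments; the next lowest, Slc1a4, had 1889 or more.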
